A study of Mus musculus with 6 samples.

Results

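Collagen genes were followed in primary mouse synovial fibroblasts, the mesenchymal cells of the joint lining and of the tissue beneath it. The members were every gene of the count table named Col, a number, the letter a and a second number. There were 44 such genes among 21033, and 23 of them had enough reads to be tested among 10124 tested genes. Of the 44, 11 encode fibrillar chains, 9 fibril-associated chains, 9 network-forming chains and 6 chains of the beaded filament, and 9 fall outside these 4 groups. One group of 3 libraries came from cells given compound 33 at 10 µM for 48 h, and the other group of 3 libraries came from cells given DMSO, its vehicle. Both groups had the hTNFtg genotype, a human TNF transgene that gives mice chronic arthritis, and came from ankle joints after 3 passages in culture. Whether the 3 libraries of a group came from separate animals, separate cultures or pooled cells is not stated in the labels, nor are the age and strain of the mice. The p-values therefore describe variation from library to library, part of which can be technical.

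Collagens are secreted proteins whose chains wind around each other in a triple helix, and a helix needs glycine at regular intervals, 1 in each triplet of residues, because no larger residue has room at its centre. Fibrillar chains assemble into the striped fibres that carry tension, fibril-associated chains sit on the surface of those fibres, network chains form sheets such as the basement membrane, and type VI chains form beaded filaments around cells. Synovial fibroblasts make most of the collagen of the synovium, and in arthritis they also take part in its remodelling.

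The repeat that all members share, and that the gene names do not show, can be read in their coding DNA, where GGN is the codon of glycine. The first 27 bases of the longest unbroken repeat that lie within a single exon are shown for 9 members, namely the leading chains of type I and type III fibres, the 5 genes with the lowest p-values in the comparison and a chain of the basement membrane network. The glycine codon that opens each triplet is in capitals, and Col3a1 also holds glycine codons inside its triplets, in lower case.
Col1a1: GGTccttctGGTcctcgtGGTctccct
Col1a2: GGTttaatgGGAcccagaGGCcctcct
Col3a1: GGAgtgggaGGAatgggtGGCtatccg
Col24a1: GGTgacccaGGTcttttgGGGttagtg
Col11a1: GGCcctcctGGCccaatgGGTcttact
Col27a1: GGCaacatgGGCttgcctGGGctctcc
Col12a1: GGTcgccagGGAatgaaaGGTgatgca
Col4a1: GGAgaaagaGGCttgccaGGGttgcaa
Col6a3: GGAcccaaaGGAgagacgGGAgacatc
All 9 stretches lie in coding exons of the GENCODE M21 annotation of mm10. On the plus strand are those of Col1a1 at chr11:94939697-94939723, Col1a2 at chr6:4515210-4515236, Col3a1 at chr1:45323762-45323788, Col24a1 at chr3:145328731-145328757, Col11a1 at chr3:114105402-114105428 and Col27a1 at chr4:63245069-63245095. On the minus strand are those of Col12a1 at chr9:79612943-79612969, Col4a1 at chr8:11247069-11247095 and Col6a3 at chr1:90792419-90792445.

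The fibrillar genes had the longest unbroken repeats of the members, and the lengths of the other groups overlapped. The longest run of GGN triplets without a break was between 337 and 344 triplets in 9 of the 11 fibrillar genes, against 217 in Col27a1 and 216 in Col24a1. It reached 32 to 113 triplets in fibril-associated genes, 39 to 66 in network genes and 37 to 87 in beaded genes, in which short breaks split the helix or the helix is short. Coding exons of exactly 54 bases numbered 21 to 33 per gene in the fibrillar group, 4 to 28 in the fibril-associated group, 0 to 3 in the network group, 2 to 3 in the beaded group and 0 to 6 outside these groups. Several members are neighbours on a chromosome with no protein-coding gene between them. Col3a1 and Col5a2 face each other on chromosome 1 with 24614 bases between their ends, Col6a2 and Col6a1 follow each other on chromosome 10, and Col4a1 and Col4a2 start back to back on chromosome 8 with gene bodies that overlap by 22 bases.

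Libraries held 1594052 to 2384850 reads with compound 33 and 1913730 to 2897207 reads with DMSO. The kit reads the 3′ end of each transcript, so reads follow transcript number and not transcript length, and levels are given as reads per 1000000 (CPM) after scaling. Fibroblast markers were detected in every library, at a summed level of 6778.6, 7415.9 and 8553.9 CPM with compound 33 and 10085, 7500.0 and 6872.6 CPM with DMSO. Markers of endothelial cells, which also make network collagens, summed to 5.15 to 9.54 CPM with compound 33 and 2.79 to 3.71 CPM with DMSO, and Pecam1 and Tie1 had no read. Chondrocyte markers summed to 111.9 to 156.5 CPM with compound 33 and 81.7 to 162.4 CPM with DMSO, nearly all of it Sox9 and Comp, and the cartilage genes Acan, Matn1 and Cnmd had no read. Single fibroblast markers differed in direction, and 3 of 8 had an unadjusted p under 0.05 against 6.87% of all genes, namely Thy1 at -0.65, Dcn at -0.53 and Pdgfrb at 0.62 on the log2 scale. The summed endothelial markers and those of Schwann cells, at 64.8 to 77.2 CPM with compound 33 and 57.3 to 64.1 CPM with DMSO, did not overlap between the groups. Sums of macrophage, mural and osteoblast markers overlapped. Within these lists the mural markers Cspg4, at 0.70 on the log2 scale, and Des did not overlap. Des stood at 2.06 to 4.28 CPM with compound 33 and 0.348 to 0.530 CPM with DMSO. The osteoblast marker Bglap did not overlap either, at 0 to 0.415 CPM with compound 33 and 0.530 to 1.04 CPM with DMSO. Des, Bglap and the endothelial sums rest on few reads. In each compound 33 library the largest endothelial value was that of Tek, at 4.28, 7.05 and 2.06 CPM. With DMSO Tek stood at 2.12, 0.451 and 1.04 CPM, so its groups overlapped. Over all genes tested, 13.4% had groups that did not overlap. The part of these markers in the collagen values was not tested.

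No collagen gene passed the comparison of compound 33 with DMSO, made to find the genes deregulated in activated fibroblasts by the compound. The median log2 fold changes of the fibrillar, fibril-associated and beaded groups were -0.36 over 9 tested genes, -0.18 over 3 and -0.57 over 3. The network group had a median of 0.19 over 6 tested genes, all of them positive with all libraries, though Col4a2, Col8a2 and Col10a1 turned negative when a single library was left out, at -0.06, -0.53 and -0.61 at the lowest. The lowest p-values belonged to Col24a1, Col12a1, Col11a1, Col6a3 and Col27a1, all lower with compound 33. Over all 23 tested members the median was -0.18 with 14 negative, beside -0.01 and 51.1% negative over all genes tested.

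In edgeR's quasi-likelihood test, 0 of 23 collagen genes had an adjusted p under 0.05, where 0.0296% of all genes tested did. Before adjustment 5 lay under 0.05, all lower, against 6.87% of all genes in either direction, 3.23% in the lower and 3.64% in the higher direction. In DESeq2, 0 of the 18 collagens given an adjusted p passed, against 0.197% of the 9141 genes given one, and the 5 without one include Col24a1. DESeq2 had 4 collagens under an unadjusted 0.05, against 5.7% of all genes tested. In limma-voom 0 passed, against 0.0198%, with 4 under an unadjusted 0.05, against 6.75%. Groups did not overlap in 4 of 23 collagens, against 13.4% of all genes tested. Col24a1 is in each of these counts under an unadjusted 0.05 and among the 4 without overlap. It had enough reads to be tested only through the DMSO libraries, in which it is higher, so its direction was favoured. The members were chosen with earlier results known, so no p-value is given for the list. A lower level in bulk RNA can come from fewer cells of a type or from less RNA per cell, which cannot be told apart.

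**Figure D1:**
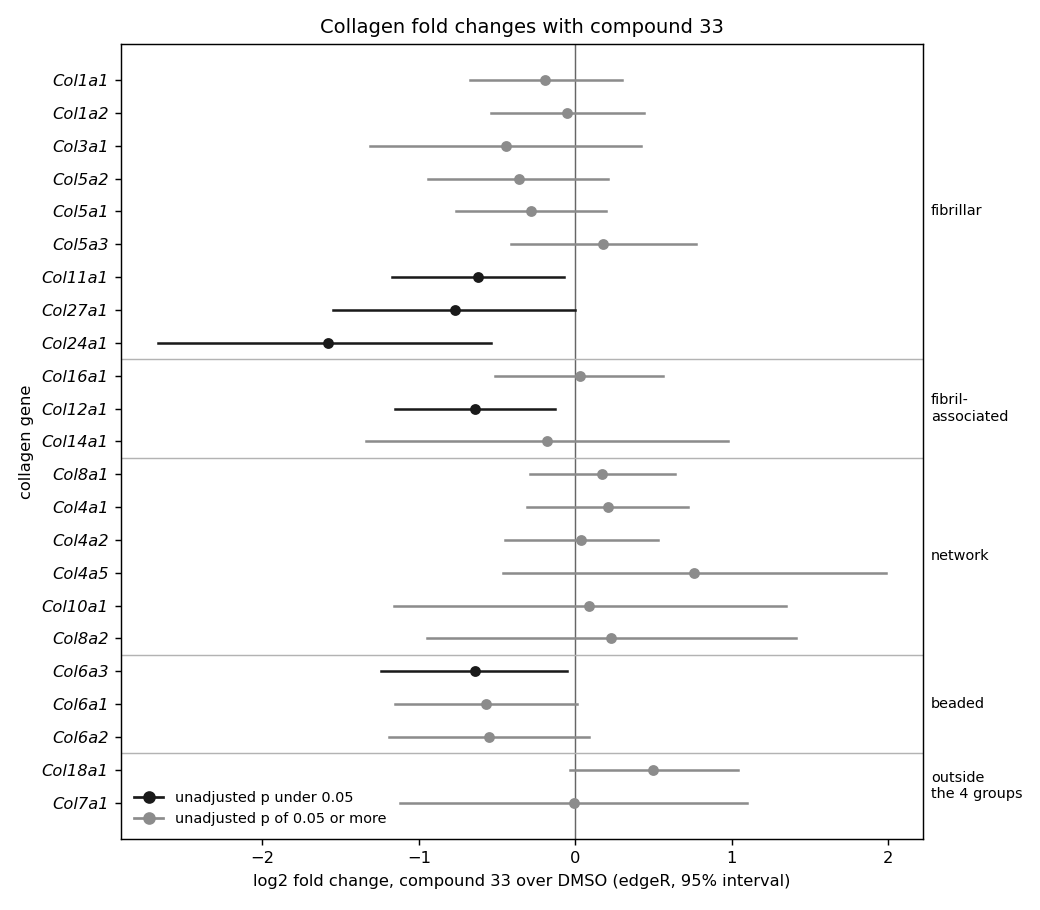
Log2 fold change of compound 33 over DMSO (horizontal axis) for the 23 tested collagen genes (vertical axis, by structural group), as points with 95% intervals from edgeR. The 5 genes with an unadjusted p under 0.05 are in black and lie at -0.62 to -1.58, while all 6 network genes lie at or above 0.04.

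Type I collagen, the main fibre of most connective tissue, was the most abundant collagen and had one of the smaller differences. Col1a1, its alpha 1 chain, stood at 2411, 3109.7 and 2776.5 CPM with compound 33 and at 2572, 3429 and 3451.5 CPM with DMSO, which ranked it 22nd by mean level among all genes of the table. The ranges of the groups overlapped. Its log2 fold change was -0.19 (SE 0.23, 95% interval -0.67 to 0.30, edgeR adjusted p = 0.928). Col1a2, the alpha 2 chain, stood at 2253, 2283.5 and 1899 CPM with compound 33 and at 1749.9, 2596.5 and 2304 CPM with DMSO, with the compound 33 libraries inside the range of the DMSO libraries. Its log2 fold change of -0.05 had an interval of -0.54 to 0.44, so the data do not exclude a difference of either sign within that range.

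Col3a1, the chain of the thinner type III fibres, was the most uneven of the abundant collagens. It stood at 1279, 1863 and 1088 CPM with compound 33, against 693.6, 2596 and 2467 CPM with DMSO. The low DMSO value was replicate 1, which lay below all other libraries, while DMSO replicates 2 and 3 lay above all compound 33 libraries. The log2 fold change was -0.44 (SE 0.40, edgeR adjusted p = 0.892), with an interval of -1.31 to 0.42. Without DMSO replicate 1 it was -0.84, and without DMSO replicate 2 it was -0.16. Exons of Col3a1 overlap those of Gm47302 on the same strand, so some of its reads may have been counted differently.

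The chains of type V collagen, which joins type I chains in mixed fibres and limits their width, had estimates of both signs, none of which passed. Col5a2 stood at 1295, 1506 and 1146 CPM with compound 33 and at 1080.1, 2205 and 1787 CPM with DMSO, again with DMSO replicate 1 below every other library. Col5a1 stood at 514.1, 738.4 and 574.4 CPM with compound 33 and at 615.6, 819.6 and 783.0 CPM with DMSO. Both had negative estimates that missed the threshold, -0.36 (SE 0.27) for Col5a2 and -0.28 (SE 0.22) for Col5a1. Exons of Col5a1 overlap those of 2810430I11Rik and Gm13372 on the opposite strand, so reads there cannot be assigned with certainty. Col5a3, a chain found in fewer tissues, had the single positive estimate of the fibrillar group, 0.18 (SE 0.28), or -0.07 without compound 33 replicate 3, from 106.4, 160.4 and 210.5 CPM with compound 33 and 111.9, 123.1 and 185.9 CPM with DMSO.

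**Figure D2:**
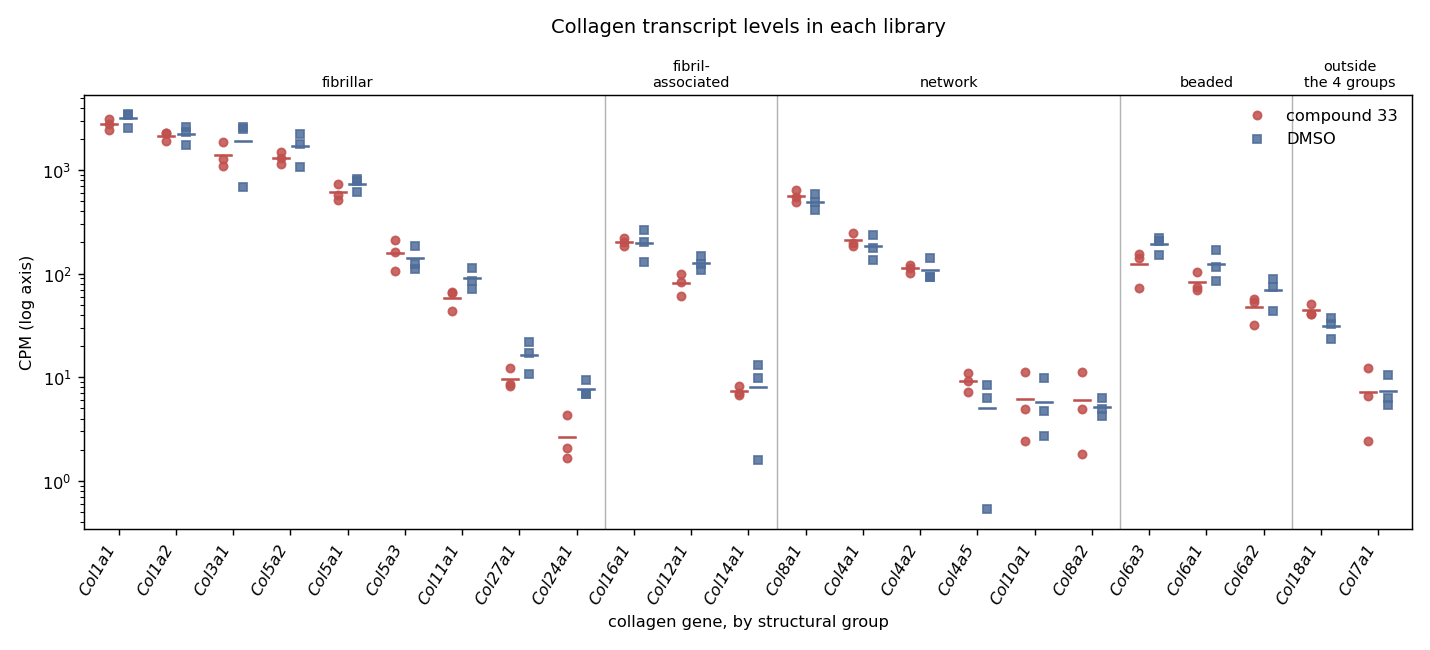
CPM on a log axis (vertical) of the 23 tested collagen genes (horizontal, by structural group) in each library, with compound 33 as red circles, DMSO as blue squares and group means as bars. Col1a1 stands highest, at 2411 to 3109.7 CPM with compound 33, and the groups are fully apart in Col11a1, Col24a1, Col12a1 and Col18a1.

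The less abundant fibrillar chains held 3 of the 5 lowest p-values. Col11a1, which nucleates thin fibres and is best known from cartilage, stood at 67.2, 43.5 and 65.4 CPM with compound 33 and at 114.5, 70.4 and 85.6 CPM with DMSO. Every compound 33 library lay below every DMSO library. The log2 fold change was -0.62 (SE 0.26, unadjusted p = 0.0298, edgeR adjusted p = 0.697). Col24a1 had 7, 4 and 4 reads with compound 33 and 13, 21 and 20 reads with DMSO, or 4.28, 1.66 and 2.06 CPM against 6.89, 9.47 and 6.96 CPM. The groups did not overlap, with a log2 fold change of -1.58 (SE 0.49, unadjusted p = 0.00619, edgeR adjusted p = 0.508). This gene reached the read minimum only through the DMSO libraries, in which it is higher, so its place among the tested genes favoured a difference in this direction, and it was not tested under the stricter minimum. Col27a1, which with Col24a1 forms a separate branch of the fibrillar family, had 20, 21 and 16 reads with compound 33 and 41, 24 and 49 reads with DMSO. Its CPM ranges overlapped, at 8.24 to 12.2 with compound 33 and 10.8 to 21.7 with DMSO, and its log2 fold change was -0.77 (SE 0.36, unadjusted p = 0.0495, edgeR adjusted p = 0.720).

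The remaining fibrillar chains, Col2a1 and Col11a2, had few reads. Col2a1, the main chain of cartilage fibres, had 2, 7 and 11 reads with compound 33 and 0, 9 and 12 reads with DMSO. Col11a2 had 0 reads in all compound 33 libraries and 2, 4 and 0 reads in the DMSO libraries. Neither had enough reads to be tested.

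Gene bodies of the members with the lowest p-values lie on mm10 at 114030540 to 114220718 of chromosome 3 for Col11a1, 145292472 to 145552011 of chromosome 3 for Col24a1 and 63214004 to 63334991 of chromosome 4 for Col27a1. Col12a1 lies at 79598991 to 79718831 of chromosome 9 and Col6a3 at 90765923 to 90843971 of chromosome 1. Exons of these 5 genes overlap no exon of another annotated gene.

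Of the fibril-associated collagens, 3 of 9 were tested and none passed. Col12a1, which coats type I fibres in tissue under tension, stood at 61.1, 83.7 and 99.3 CPM with compound 33 and at 108.7, 124.1 and 148.7 CPM with DMSO. The groups did not overlap, and the log2 fold change was -0.64 (SE 0.24, unadjusted p = 0.0173, edgeR adjusted p = 0.649). Col16a1 stood at 202.4, 184.1 and 219.3 CPM with compound 33 and at 200.4, 130.8 and 263.2 CPM with DMSO, with a log2 fold change of 0.03 (SE 0.25). The compound 33 libraries of Col16a1 lay within the range of the DMSO libraries. Col14a1, a relative of Col12a1, had 11, 17 and 16 reads with compound 33 and 3, 29 and 28 reads with DMSO, the value of 3 again belonging to replicate 1. Its log2 fold change of -0.18 had an interval of -1.34 to 0.98. The untested members had at most 5 reads over all libraries, which holds for the cartilage chains Col9a1, Col9a2 and Col9a3 and for Col20a1, and Col19a1 and Col22a1 had no read.

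Type VI collagen, the beaded filament that lies close to the cell surface, had estimates of similar size in its 3 expressed chains. Col6a3, the longest of them, stood at 72.7, 156.3 and 141.6 CPM with compound 33 and at 151.7, 222.4 and 206.8 CPM with DMSO. The groups overlapped by 1 library, since compound 33 replicate 2 lay above DMSO replicate 1. The log2 fold change was -0.64 (SE 0.28, unadjusted p = 0.0366, edgeR adjusted p = 0.714). Col6a1 stood at 74.0, 104.1 and 70.0 CPM with compound 33 and at 85.4, 167.4 and 117.0 CPM with DMSO, a log2 fold change of -0.57 (SE 0.27, unadjusted p = 0.0528). Col6a2 stood at 31.8, 53.1 and 56.6 CPM with compound 33 and at 43.5, 89.8 and 74.2 CPM with DMSO, a log2 fold change of -0.55 (SE 0.30, unadjusted p = 0.0872). In each chain the lowest DMSO value was replicate 1. Without that library the estimates were -0.79, -0.77 and -0.78 and all 3 had an unadjusted p under 0.05, where 9.17% of all genes did, with an edgeR adjusted p of 0.373 or more. Without DMSO replicate 2 the estimates were -0.53, -0.28 and -0.32, and without compound 33 replicate 1 they were -0.38, -0.50 and -0.34, none of them with an unadjusted p under 0.05. Col6a4 had 2 reads and Col6a6 had 1 read in all, and Col6a5 had none.

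Network collagens had positive estimates, between 0.04 and 0.76, and none passed. Col8a1, a short chain of subendothelial and scar-like matrix, led them with 635.8, 492.1 and 553.3 CPM with compound 33 and 492.6, 411.0 and 586.6 CPM with DMSO, a log2 fold change of 0.17 (SE 0.22). Col4a1, a chain of the basement membrane, stood at 198.7, 186.1 and 249.1 CPM with compound 33 and at 237.0, 134.9 and 177.9 CPM with DMSO, a log2 fold change of 0.21 (SE 0.24). Its partner Col4a2 stood at 121.0, 114.0 and 101.9 CPM with compound 33 and at 141.0, 93.8 and 93.3 CPM with DMSO, a log2 fold change of 0.04 (SE 0.23) that turned negative in 3 of 6 fits with a library left out. The groups overlapped in all 3 genes, and DMSO replicate 1 held the highest DMSO value of both type IV chains. The starts of Col4a1 and Col4a2 overlap by 22 bases on opposite strands, away from the 3′ ends that the kit reads. Exons of Col4a2 also overlap those of Gm15419 on the opposite strand. Whether counting used the strand is not stated, so reads in these overlaps cannot be assigned with certainty.

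The other network chains had few reads. Col4a5, a chain of specialised basement membranes, had 18, 22 and 14 reads with compound 33 and 1, 14 and 24 reads with DMSO, and its log2 fold change was 0.76 (SE 0.57, interval -0.46 to 1.99), or 0.29 without DMSO replicate 1. Col10a1, a marker of hypertrophic cartilage, had 4, 12 and 22 reads with compound 33 and 9, 6 and 28 reads with DMSO. Exons of Col10a1 overlap those of Nt5dc1 on the opposite strand, so its reads cannot be assigned with certainty. Col8a2 had 3, 12 and 22 reads with compound 33 and 8, 11 and 18 reads with DMSO. Estimates for these last 2 genes were 0.09 (SE 0.58) and 0.23 (SE 0.55). Col4a6 had 4 reads in all, and Col4a3 and Col4a4 had none.

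Of the 9 members outside the 4 groups, 2 were tested. Col18a1, a multiplexin of basement membranes and the source of endostatin, stood at 41.0, 50.6 and 41.2 CPM with compound 33 and at 32.9, 23.5 and 37.3 CPM with DMSO. Every compound 33 library lay above every DMSO library, and the log2 fold change was 0.50 (SE 0.25, unadjusted p = 0.0644, edgeR adjusted p = 0.741). It was the only tested collagen with groups that did not overlap in the higher direction, against 6.64% of all genes tested, while 3 did not overlap in the lower direction, against 6.73%. Col7a1, the anchoring fibril of skin, had 4, 16 and 24 reads with compound 33 and 20, 12 and 18 reads with DMSO. Exons of Col7a1 overlap Mir711 on the same strand. Among untested members, Col15a1, the other multiplexin, had 38 reads in all, Col23a1 17, Col28a1 15, Col25a1 2 and Col17a1 1, and Col13a1 and Col26a1 had none. In total 21 members were not tested, 7 of them without a read in any library, and the highest of the 21, Col2a1, had 41 reads over all libraries.

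Collagen reads made up a small and uneven share of the libraries. They were 0.966%, 1.13% and 0.878% of all reads with compound 33 and 0.837%, 1.35% and 1.27% with DMSO, a mean of 0.992 ± 0.129% and 1.15 ± 0.278% (SD, n = 3 each). The lowest share was that of DMSO replicate 1 and the highest that of DMSO replicate 2, so the groups overlapped. Fibrillar genes held 84.4%, 86.9% and 83.0% of collagen reads with compound 33 and 82.1%, 89.2% and 86.3% with DMSO. Col1a1, Col1a2, Col3a1 and Col5a2 together held 73.8% to 78.3% with compound 33 and 71.8% to 81.4% with DMSO. The beaded group was the only one of the 5 whose shares did not overlap between the groups, at 1.90%, 2.81% and 2.87% with compound 33 and 3.30%, 3.61% and 3.10% with DMSO. In CPM, Col6a1, Col6a2 and Col6a3 each overlapped. A share of collagen reads also depends on the collagen total, which was the smallest part of the library in DMSO replicate 1. Network genes held 10.3%, 7.27% and 9.97% with compound 33 and 10.4%, 4.92% and 6.87% with DMSO.

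**Figure D3:**
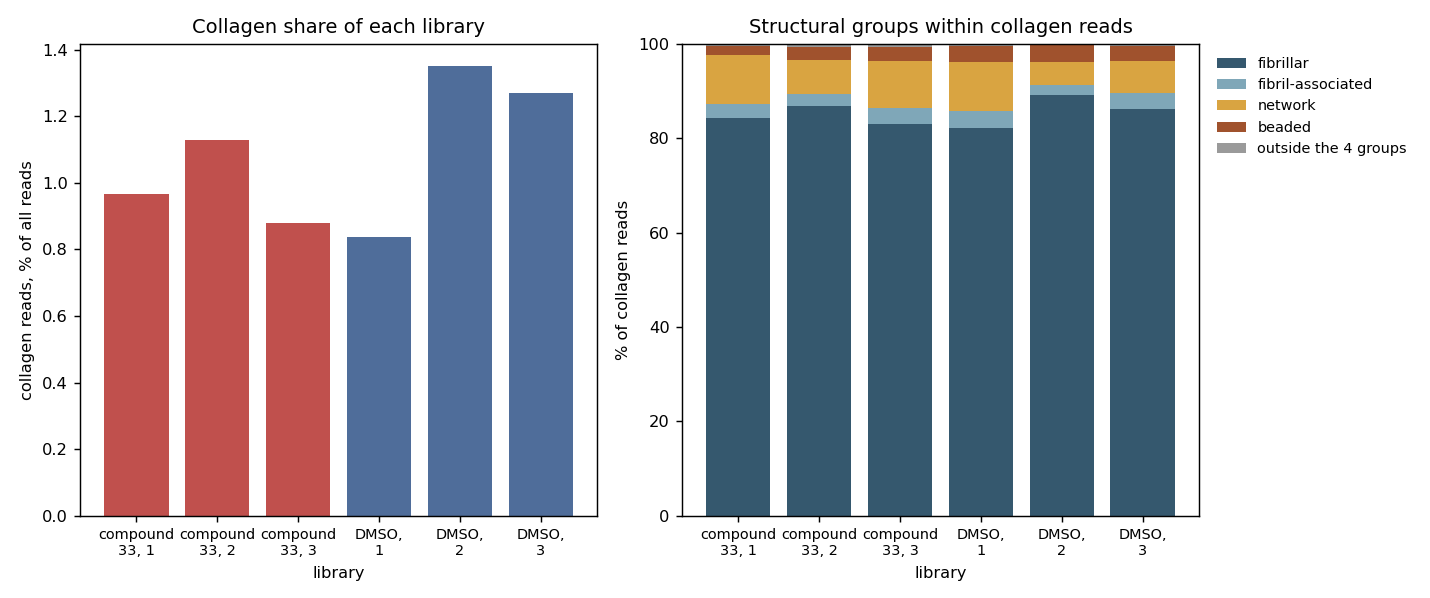
Left, collagen reads as a percent of all reads in each library, red for compound 33 and blue for DMSO. Right, the percent of collagen reads in each structural group, where fibrillar genes hold 82.1% to 89.2% of every bar.

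Ratios between chains of one library do not depend on library scaling, and they overlapped between the groups in all 7 pairs examined. Type I trimers take up 2 alpha 1 chains for each alpha 2 chain. The reads of Col1a1 over Col1a2 stood at 1.07, 1.36 and 1.46 with compound 33 and at 1.47, 1.32 and 1.5 with DMSO. These are ratios of RNA reads and not of protein chains, so they cannot be measured against the make-up of the trimer. On the log2 scale the difference was -0.15, with compound 33 replicate 1 the lowest library. Col4a1 exceeded Col4a2 in every library, with ratios of 1.64, 1.63 and 2.44 with compound 33 and 1.68, 1.44 and 1.91 with DMSO. Col5a1 was below Col5a2 throughout, with ratios of 0.397, 0.490 and 0.501 with compound 33 and 0.570, 0.372 and 0.438 with DMSO. Among type VI chains, the mean log2 ratio of Col6a1 over Col6a2 was 0.83 ± 0.47 with compound 33 and 0.84 ± 0.16 with DMSO, and that of Col6a3 over Col6a2 was 1.35 ± 0.19 and 1.53 ± 0.25 (SD, n = 3 each). Col8a1 exceeded Col8a2 by 47.8 to 297.3 times with compound 33 and by 79.3 to 109.4 times with DMSO, ratios that rest on few Col8a2 reads. The ratio of Col1a1 to Col3a1, fibres of different type, was 1.89, 1.67 and 2.55 with compound 33 and 3.71, 1.32 and 1.4 with DMSO, so DMSO replicate 1 stood beyond every other library.

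**Figure D4:**
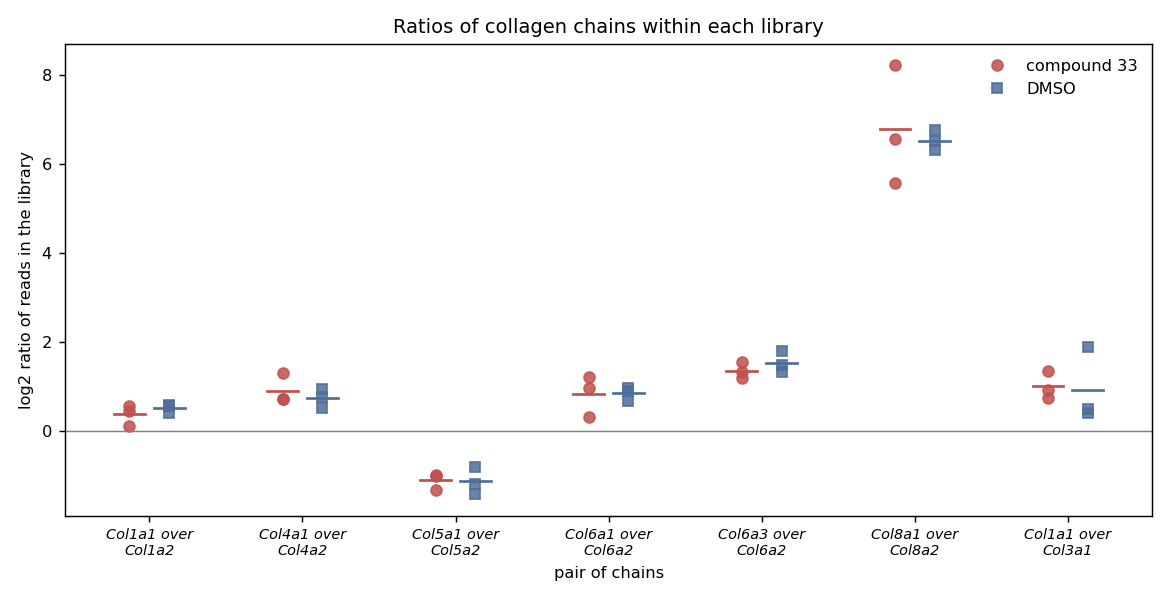
Log2 ratio of the reads of 2 collagen chains (vertical axis) in each library for 7 pairs (horizontal axis), with compound 33 as red circles, DMSO as blue squares and group means as bars. The groups overlap in every pair, and 1 DMSO library stands at 1.89 for Col1a1 over Col3a1 where the others lie at 0.40 and 0.48.

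The spread within each group was set beside that of all tested genes above the same minimum level, without matching the sets by level. Over the 15 members with a mean of at least 50 CPM, the median coefficient of variation was 19.1% with compound 33 and 25.1% with DMSO. It was 15.6% and 18.6% over the 3879 genes that reached this minimum. DMSO replicate 1 held the lowest DMSO value in 14 of the 23 tested collagens (60.9%) and the highest in 5 (21.7%), beside 38.3% and 38.5% of all genes tested. Its log2 distance from the mean of the other DMSO libraries was -1.87 for Col3a1, -0.89 for Col5a2, -2.84 for Col14a1 and -3.79 for Col4a5, and in the other direction 0.60 for Col4a1, 0.59 for Col4a2, 0.55 for Col11a1 and 0.64 for Col27a1. The summed fibroblast markers were highest in this same library, mainly through Pdpn, at 5851.9 CPM against 2535.2 and 2913.2 CPM in DMSO replicates 2 and 3. Among the DMSO libraries Dcn was also highest there, Pdgfrb, Vim, Cdh11 and Prg4 were lowest, and Thy1 and Pdgfra lay between. The part of these markers in the collagen values of DMSO replicate 1 was not tested.

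Leaving out each library in turn moved the estimates without bringing any collagen past the adjusted threshold. Col12a1 had an unadjusted p under 0.05 in 4 of 6 such fits, Col6a3 and Col11a1 in 3 of 6 and Col27a1 in 2 of 6. Col24a1 had one in 6 of 6, with log2 fold changes of -2.04 to -1.30, but the read minimum favoured its direction, so this count is no sign of stability. Col3a1 and Col5a2 were under that line only without DMSO replicate 1, with log2 fold changes of -0.84 and -0.60 and adjusted p-values of 0.312 and 0.407 in edgeR. The number of collagens under an unadjusted 0.05 ran between 7 without DMSO replicate 1, where the share over all genes was 9.17%, and 2 without DMSO replicate 3, where it was 5.73%. It was 3 without compound 33 replicate 1, where the share was 5.5%.

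**Figure D5:**
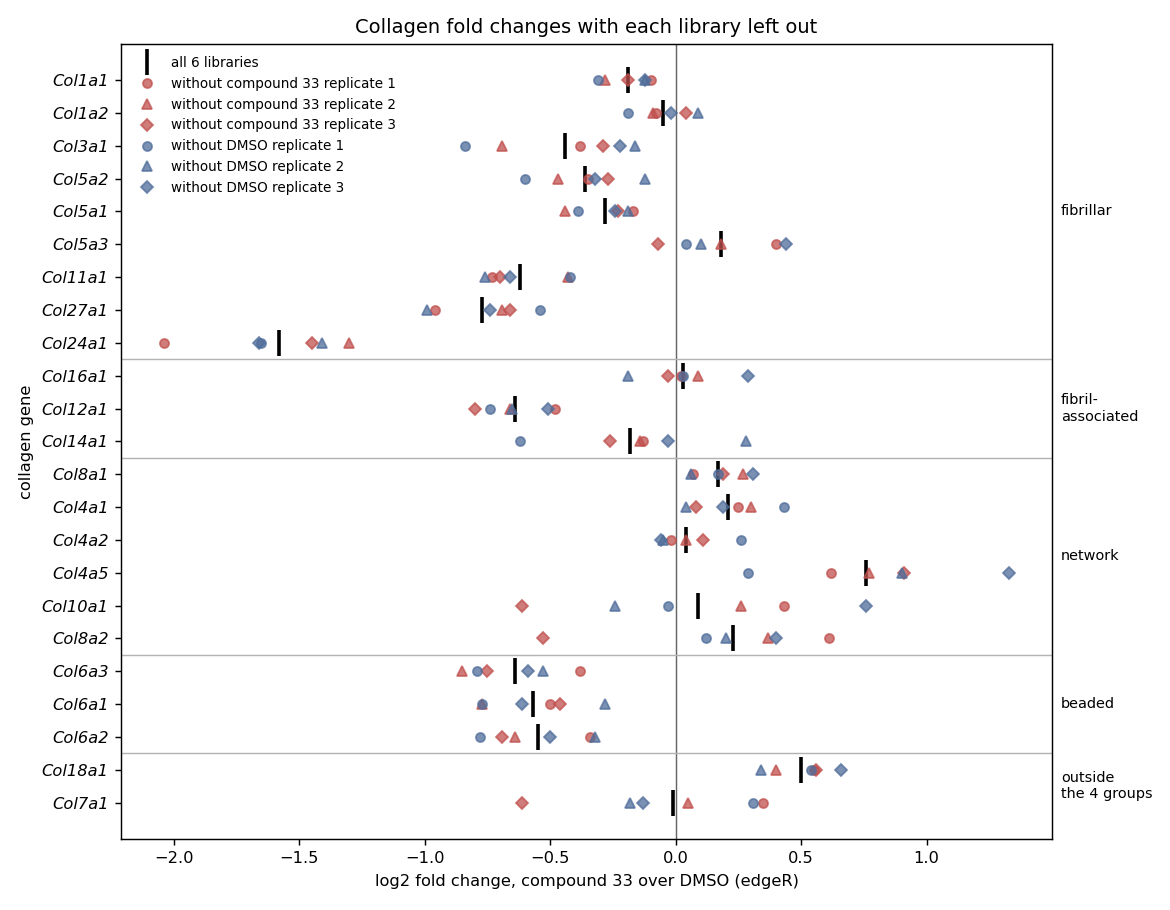
Log2 fold change of compound 33 over DMSO from edgeR (horizontal axis) for each tested collagen gene (vertical axis, by structural group) with all 6 libraries (black bar) and with each library left out (coloured marks). Col24a1 stays between -2.04 and -1.30, the 3 type VI chains stay between -0.85 and -0.28, and Col10a1 crosses 0 with a range of -0.61 to 0.76.

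In the authors' deposited table, 0 of the 23 tested collagens has an adjusted p under 0.05, where 0.179% of its genes with an adjusted p do. The lowest collagen value in the authors' deposited table is that of Col12a1, with a log2 fold change of -0.64 (SE 0.26) and an adjusted p of 0.688. For Col24a1 the authors' deposited table gives -1.59 (SE 0.68) with an adjusted p of 0.719, and for Col6a3 -0.64 (SE 0.29) with 0.792.

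The genes that modify, process, bind or break down collagen were looked at beside the chains, and 0 of them passed in edgeR. Of 19 tested genes of procollagen modification and folding, 0 were lower and 1 higher under an unadjusted 0.05, with a median log2 fold change of -0.03, where 3.23% of all genes were lower and 3.64% higher under that line. The collagen chaperone Serpinh1, the most abundant of them, stood at 1272 ± 34.4 CPM with compound 33 and 1284 ± 138 CPM with DMSO (SD, n = 3 each), while the lysyl hydroxylase Plod2 had an estimate of -0.72 (SE 0.34), Plod3 -0.34 (SE 0.19) and the prolyl 3-hydroxylase family member P3h3 0.59 (SE 0.26). Of 11 tested genes of propeptide removal and cross-linking, 2 were lower and 0 higher under an unadjusted 0.05, against the same 3.23% and 3.64% of all genes, namely the procollagen N-proteinase Adamts2 at -0.84 (SE 0.30) and the C-proteinase enhancer Pcolce at -0.56 (SE 0.23). In this list the cross-linking enzyme Lox was the most abundant, with -0.17 (SE 0.34), and its relative Loxl2 stood at -0.50 (SE 0.27).

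Of 11 tested fibril-binding proteins, 4 were lower and 1 higher under an unadjusted 0.05, among them lumican (Lum) at -0.68 (SE 0.23), periostin (Postn) at -0.69 (SE 0.25) and Prelp at 0.62 (SE 0.25), where 6.87% of all genes lay under that line. Sparc, a collagen-binding glycoprotein, was the most abundant of them at 0.08 (SE 0.27). Among 7 tested collagen receptors, 0 were lower and 1 higher under an unadjusted 0.05, against 3.23% and 3.64% of all genes. The receptor under that line was the endocytic Mrc2 at 0.72 (SE 0.32). The integrin Itga11 stood at -0.53 (SE 0.31), Ddr1 at 0.23 (SE 0.22) and the shared integrin chain Itgb1 at -0.16 (SE 0.22). Among 6 tested genes of collagen degradation, 0 were lower and 1 higher under that line, against the same 3.23% and 3.64% of all genes. The gene under the line was the protease cathepsin K (Ctsk) at 0.74 (SE 0.31). The collagenase Mmp14 stood at 0.48 (SE 0.24) and Mmp2, the most abundant, at -0.37 (SE 0.23).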

How the data were processed

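Sequencing covered transcript 3′ ends (QuantSeq, Ion Proton), per the labels' protocols. Per the submitters' processing notes, which give no roles, mm10 was the build and the tools were featureCounts 2.0.3, HISAT2 2.2.1, DESeq2 and FastQC 0.11.9. Annotation and strand setting are not stated there. The authors deposited raw read counts per gene for the 6 libraries. The authors also deposited a comparison table, whose mean normalized count is a signal, whose fold change and SE are log2 values, whose Wald statistic is a score and which ends with a p-value and an adjusted p-value.

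The deposited counts went into edgeR 4.0.16 under R 4.3.3. Genes were kept by filterByExpr (minimum count 10), libraries were scaled by TMM, and groups were compared with the robust quasi-likelihood F test, two-sided, with Benjamini-Hochberg adjustment over 10124 genes and a threshold of 0.05. The procedure was tested on simulated data. The SE is the unshrunk log2 fold change over the square root of F. Chain ratios used a pseudocount of 0.5. Alternatives were other scalings and filters, DESeq2 1.42.0, limma-voom (limma 3.58.1), a replicate block and leaving out each library. No 2 libraries of a group agreed within counting noise (chi-square over its degrees of freedom, 4.62 to 19.1). The typical variation between libraries beyond counting noise was 23.6%.

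All 44 collagen genes matched 1 gene of GENCODE M21, whose transcripts gave the repeats, counted as runs of at least 3 GGN triplets in the longest coding sequence. Every collagen is named. Values in every library are given for those with 50 CPM in a group, an unadjusted p under 0.05 or groups that do not overlap, and, outside this rule, reads for others. Up to 3 genes of each other list with the lowest p and the most abundant are named. The members and lists were chosen with earlier results of these data known.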

Additional observations from a re-analysis of the deposited data

How the results depend on the processing

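With every alternative, 0 of the collagen genes given an adjusted p passed. In DESeq2 5 of 23 had none, Col24a1 among them, and the stricter filter tested 16, without Col24a1 and Col27a1. Of 361 single-gene log2 fold changes, 343 kept their direction and 18 changed sign, in 8 genes with small estimates. Over all genes, 3 passed, against 21 without a low-count filter, 18 in DESeq2 and 7 with the replicate block. Collagens under an unadjusted 0.05 numbered 5 (6.87% of all genes), against 8 without a low-count filter (6.24%), 3 with the stricter filter of 30 reads in 3 libraries (6.88%) and 6 with the replicate block (6.6%). The collagen median was -0.18, against 0.03 without a low-count filter (37 collagens tested) and -0.06 with the replicate block. Same-numbered libraries had correlations of deviations of -0.03, 0.214 and 0.077, and 1 of 3 compound 33 libraries matched its own number best. With 3 libraries a group, these values cannot show whether the numbers pair the libraries, and the labels do not state it. In limma-voom the estimate was -0.06 for Col8a2 and 0.16 for Col14a1. Leaving out each library, passing genes numbered 1 to 7, collagens under an unadjusted 0.05 numbered 2 to 7 and the collagen median ran between -0.31 and -0.10. The ranges that crossed 0 were -0.53 to 0.61 for Col8a2, -0.19 to 0.29 for Col16a1, -0.19 to 0.09 for Col1a2, -0.61 to 0.76 for Col10a1, -0.06 to 0.26 for Col4a2, -0.07 to 0.44 for Col5a3, -0.61 to 0.35 for Col7a1 and -0.62 to 0.28 for Col14a1. The cause was not tested. At these depths genes under about 10 CPM rest on few reads.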
